A study of Mus musculus with 16 samples.

Results

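The genes described here are the secreted Wnt ligands, their Frizzled receptors and co-receptors, the R-spondins with their receptor Lgr4 and the membrane ligases Znrf3 and Rnf43, and the secreted inhibitors. They were taken by gene name from the array annotation: every name that starts with Wnt, Fzd, Sfrp, Dkk or Rspo and a digit, and Lrp5, Lrp6, Lgr4, Wif1, Znrf3 and Rnf43. This gave 47 genes on 68 probes, of 28034 gene names on the array. The rule uses gene names and no measured value.

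The study profiled sorted liver cells of c129/S3 mice on 1-colour arrays, to set a candidate progenitor population of the adult liver against other liver cells. The sort used the antibody MIC1-1C3 (M) together with CD133, which Prom1 encodes, and kept double-positive (M+133+) and double-negative (M-133-) cells. Livers came from untreated mice on the base diet, or from mice on that diet with 0.1% DDC for 2 weeks, a porphyrinogenic compound that brings on a ductular reaction. There were 4 M+133+ untreated, 2 M-133- untreated, 4 M+133+ DDC and 4 M-133- DDC samples on 16 arrays, since 1 sample of each untreated group had a repeat array. The labels call them biological replicates and do not say how many animals went into each. M-133- is a gate defined by the lack of both antigens, so it can hold several cell types.

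Wnt ligands are secreted proteins that bind a Frizzled receptor together with the co-receptor Lrp5 or Lrp6, which stabilises beta-catenin or, for other ligands and receptors, acts through the planar polarity branch. Znrf3 and Rnf43 remove Frizzled from the cell surface, and R-spondins bound to Lgr receptors block that removal. Secreted Frizzled-related proteins (Sfrp), Dickkopf proteins (Dkk) and Wif1 act outside the cell. In the liver lobule, endothelial cells around the central vein are a known source of Wnt2, Wnt9b and Rspo3, which maintain the pericentral gene programme of hepatocytes.

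Each level below is the log2 of a probe's processed signal minus the 75th percentile of its array, so 0 is a bright probe and levels of different probes are not on a common scale. The probes behind the members that passed the test in both sort comparisons (Fzd3, Fzd6, Fzd4, Znrf3, Sfrp1 and Dkk3), behind the member that passed it for DDC (Fzd9) and behind the ligand and the R-spondin with the largest sort differences after DDC (Wnt2 and Rspo3) are shown by the first 30 of their 60 bases, 5′ to 3′ as the array design gives them. All letters are lower case because no base is singled out.
Fzd3: tggggtgtgaacacatccaaaccctaagga
Fzd6: ggccgagctgtcgattccccttttaagtgt
Fzd9: tatttaatgatgtaatttattgtggcattt
Fzd4: acacacgtaaggtatccagtggatttctct
Znrf3: ctgacctgcatttttctattccttacataa
Wnt2: aaagagtaagcaagggctttaactaagtga
Rspo3: cggaactcgatatccagatataaataaatg
Sfrp1: cggaatcagtatagcgtggaaggagacagt
Dkk3: gaatgaaatttgcaaagtcgcttagcaaca
On mouse build mm9 the array design places them on the minus strand for Fzd3 (chr14:65811278-65811319, which covers 42 bases), Fzd9 (chr5:135724815-135724874), Znrf3 (chr11:5176747-5176806), Wnt2 (chr6:17939284-17939343), Rspo3 (chr10:29224509-29226228) and Dkk3 (chr7:119260828-119260887). On the plus strand lie those for Fzd6 (chr15:38869107-38869166), Fzd4 (chr7:96557478-96557537) and Sfrp1 (chr8:24558112-24558171). The interval of the Rspo3 probe spans 1720 genomic bases for a 60-base probe, so its sequence is split in the genome. Which exon or UTR each probe reads was not analysed here.

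Of the 47 genes, 43 were well above background in enough samples of at least 1 group to be tested. Wnt1, Wnt16, Rspo2 and Sfrp5 were not. Among the 43, 29 passed that filter in every group and 14 passed it through some groups only: Dkk2, Dkk4, Fzd3, Rspo1, Sfrp1, Sfrp2, Sfrp4, Wif1, Wnt3, Wnt3a, Wnt5a, Wnt8a, Wnt10a and Znrf3. A gene of the latter kind that is bright in 1 group and at background elsewhere was tested because of that difference, and a level near the background limit can give the same pattern. On all 16 arrays, 15 of the 43 were well above background: 7 of 17 Wnt ligands, 5 of 10 Frizzled receptors, both co-receptors and Lgr4, but none of the 3 R-spondins, 8 inhibitors and 2 ligases.

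Over the arrays, the 75th percentile of the intensities was 602.8 to 2732.2, 60.3% to 77.3% of probes were well above background, and no spot was saturated. Prom1 lay between 0.85 and 2.27 in the 8 M+133+ samples and between -8.52 and -3.44 in the 6 M-133- samples, as the sort labels say. Of 20 bile duct epithelium markers, 17 were higher in M+133+ than in M-133- cells of untreated liver and 16 of DDC liver. Of the hepatocyte markers, 14 of 17 tested were lower in both. M-133- cells carried markers of several cell types beside hepatocytes: 16 of 20 endothelial markers were lower in M+133+ cells in untreated liver and 18 of 20 in DDC liver, and of 20 stellate cell and fibroblast markers 7 and 15 were lower. The summed signal of such mixed populations cannot tell fewer cells of a type from less RNA per cell.

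**Figure D1:**
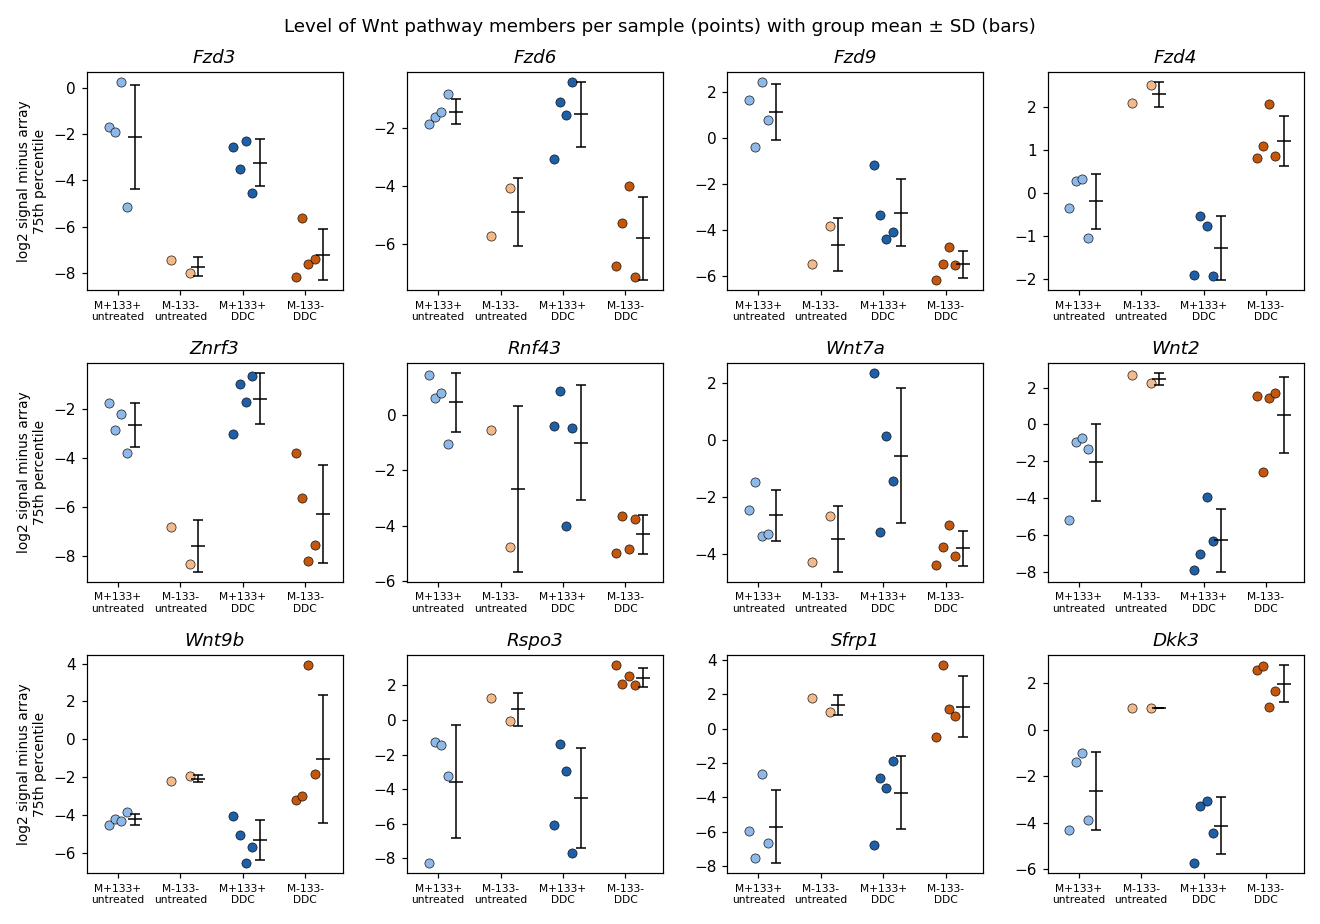
Level of 12 members in each of the 14 samples (points, log2 signal minus the array's 75th percentile) by sort and treatment, with group mean and SD (bars). Fzd3, Fzd6 and Znrf3 lie higher in M+133+ cells, Fzd4, Wnt2, Rspo3, Sfrp1 and Dkk3 lie lower, and Fzd9 is high in untreated M+133+ samples alone, from -0.36 to 2.45.

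The first comparison set M+133+ against M-133- cells within each treatment, which addresses what marks the candidate progenitor population. In untreated liver, 7 of the 43 members passed the test, that is a limma p adjusted by Benjamini-Hochberg across the 23309 tested genes that was under 0.05. Of these 4 were higher and 3 lower in M+133+ cells. Over all genes 8.89% passed, 3.57% higher and 5.32% lower. In DDC liver, 10 of 43 passed, 4 higher and 6 lower, against 13.0% of all genes (6.24% higher, 6.71% lower). The median log2 difference of the members was -0.32 in untreated and -0.07 in DDC liver, beside -0.10 and 0.27 over all genes. The 2 comparisons share no sample but come from 1 fit with a shared estimate of the spread, so they are not separate tests. Fzd3, Fzd6 and Znrf3 were higher in both and Dkk3, Fzd4 and Sfrp1 lower in both. These are 3 of 4 higher members in either treatment, and 3 of 3 lower members in untreated and 3 of 6 in DDC liver. Over all genes, 57.5% of those higher and 59.0% of those lower in untreated liver passed in the same direction in DDC liver. Of all genes higher or lower in DDC liver, 32.9% and 46.7% passed in the same direction in untreated liver. With the slide as a fixed block 4 members passed in untreated liver (Fzd4, Fzd9, Sfrp1 and Znrf3) and 5 in DDC liver (Dkk3, Rnf43, Rspo3, Wnt2 and Znrf3), where no slide held both sorts. Without M-133- untreated sample 1 none passed in untreated liver, without sample 2 Fzd9 and Sfrp1 passed, and without M+133+ untreated sample 1 Fzd3, Fzd9, Sfrp1 and Znrf3 passed. Because 14 members, with Fzd3, Sfrp1 and Znrf3 among them, were tested through some groups only, these counts describe the members and support nothing further. Values of M+133+ and M-133- samples did not overlap for 21 members in untreated liver (9 higher, 12 lower), where 34.0% of all genes did not overlap, and for 12 members in DDC liver (5 higher, 7 lower), where 14.6% did not.

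**Figure D2:**
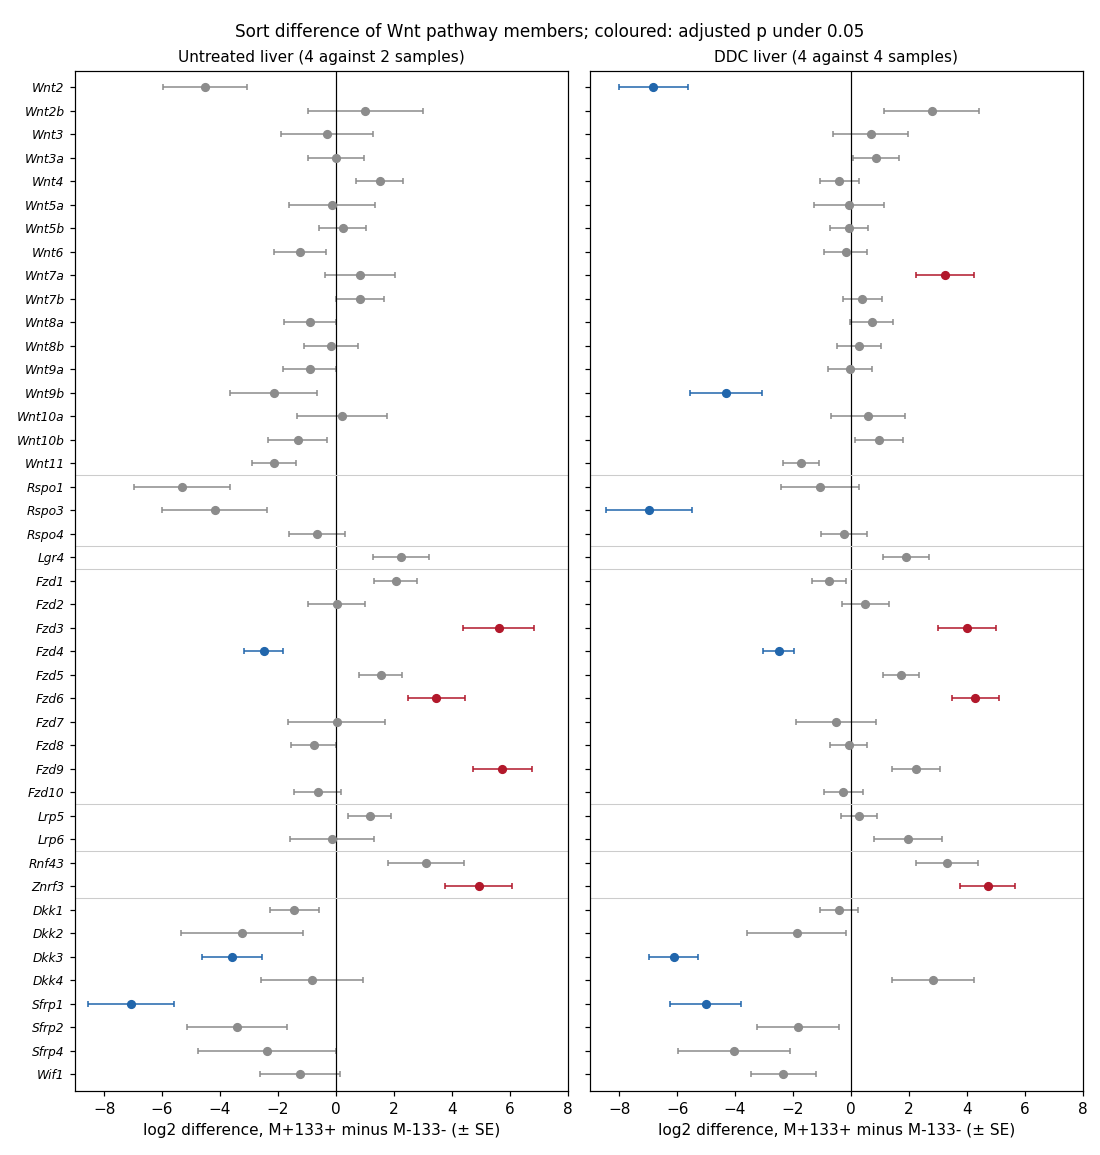
Log2 difference between M+133+ and M-133- cells (x axis, with SE) for the 43 members tested, by role from Wnt ligands at the top to inhibitors at the bottom, in untreated (left) and DDC liver (right). Coloured members passed an adjusted p under 0.05: 7 on the left, from -7.08 (Sfrp1) to 5.75 (Fzd9), and 10 on the right, from -6.98 (Rspo3) to 4.72 (Znrf3).

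Among the 17 Wnt ligands tested, none passed in untreated liver (by limma, 2 had an unadjusted p under 0.05, and the lowest adjusted p was 0.0713, for Wnt2). In DDC liver Wnt7a was higher and Wnt2 and Wnt9b were lower in M+133+ cells.

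Wnt2, a ligand of the beta-catenin branch, was measured in M+133+ cells of DDC liver at -7.89, -7.01, -3.93 and -6.35 and in M-133- cells at 1.53, -2.58, 1.43 and 1.71. The sorts did not overlap, but M-133- DDC sample 2 lay well under the rest of its group. The log2 difference was -6.82 (SE 1.19, adjusted p = 0.00128), a 113-fold lower signal. M+133+ DDC samples 1 and 2 were not well above background, so that fold is poorly set. In untreated liver the M+133+ samples had -5.17, -0.93, -0.74 and -1.35 and the M-133- samples 2.69 and 2.25, again without overlap. That difference of -4.52 (SE 1.45, adjusted p = 0.0713) did not pass. It passed without M-133- DDC sample 2 (adjusted p = 0.0375) and was -7.01 and -3.12 within the 2 slides that held both sorts.

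Wnt9b, the other ligand known from central vein endothelium, lay at -4.04, -5.09, -6.56 and -5.70 in M+133+ cells of DDC liver. The M-133- samples had -3.21, -3.03, 3.94 and -1.86, all above the M+133+ samples, with sample 3 far above the rest. The log2 difference was -4.31 (SE 1.24, adjusted p = 0.0316). Over the alternatives it ran from -5.03 to -2.65, the latter without M-133- DDC sample 3. It no longer passed with normexp background correction (0.0803) or without M+133+ DDC sample 2 (0.0556), 3 (0.0848) or 4 (0.0743). In untreated liver M+133+ samples ranged from -4.56 to -3.86 and the 2 M-133- samples had -2.22 and -1.96, a difference of -2.15 (SE 1.51, adjusted p = 0.519).

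Wnt7a, a ligand known from epithelium and the nervous system, had 2.34, -3.25, 0.12 and -1.46 in M+133+ cells of DDC liver and -4.40, -3.78, -2.98 and -4.10 in M-133- cells. M+133+ sample 2 lay within the M-133- range, so the groups overlapped, and sample 1 was the highest. The log2 difference of 3.25 (SE 0.99, adjusted p = 0.0424) was close to the threshold. Leaving out M+133+ DDC sample 1, 3 or 4 gave adjusted p of 0.113, 0.101 and 0.0543, M-133- DDC sample 1, 2 or 4 gave 0.0931, 0.0699 and 0.0837, and it also missed the threshold without any 1 of 5 untreated samples (0.0501 to 0.0575). In untreated liver the difference was 0.83 (SE 1.21, adjusted p = 0.811).

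The 14 other ligands differed by -2.13 (Wnt11) to 1.51 (Wnt4) between the sorts in untreated liver and by -1.72 (Wnt11) to 2.78 (Wnt2b) in DDC liver, with adjusted p of at least 0.106 and 0.0837. Wnt11, known for signalling outside beta-catenin, ranged from -3.52 to -1.14 in M+133+ untreated and from -2.35 to -1.19 in M+133+ DDC samples. Its M-133- samples ranged from -0.37 to -0.36 untreated and from -0.72 to 0.62 after DDC. The sorts did not overlap in either treatment, but the difference did not pass in either. For Wnt9a the kept probes disagreed: the brightest gave -0.91 and -0.04 in untreated and DDC liver, and the other 2.23 and 2.84, the latter with an adjusted p of 0.0366 in a fit over all probes.

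Of the 3 R-spondins tested, none passed in untreated liver (2 by limma at an unadjusted p under 0.05), and Rspo3 was lower in M+133+ cells of DDC liver. Rspo3 had -6.06, -1.39, -2.93 and -7.70 in M+133+ cells of DDC liver and 3.20, 2.06, 2.55 and 2.01 in M-133- cells. The groups were far apart, and the M-133- samples lay closer together than the M+133+ samples. The log2 difference was -6.98 (SE 1.49, adjusted p = 0.00538), a 126-fold lower signal. M+133+ DDC samples 1 and 4 were not well above background, so that fold is poorly set. A second, dimmer probe of Rspo3 gave -3.36 with an adjusted p of 0.127 in the fit over all probes. In untreated liver M+133+ samples had -8.29, -1.30, -1.44 and -3.25 and M-133- samples 1.28 and -0.05, without overlap but with a difference of -4.19 that did not pass (SE 1.82, adjusted p = 0.209).

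Rspo1 was not well above background on any of the 5 arrays of M+133+ untreated samples, which read -7.85, -7.63, -7.24 and -8.19. The M-133- untreated samples read -3.74 and -1.09 and were above background on all 3 of their arrays, which makes the signal at least 20.6-fold lower in M+133+ cells (at least 51.5-fold without M-133- untreated sample 1 and 8.21-fold without sample 2). Rspo1 passed the filter in M-133- untreated cells alone, where it is high, so its differences are a description. The fitted difference of -5.31 had an adjusted p of 0.0597 and did not pass. Over the alternatives it ran from -6.64 to -2.85 with an adjusted p of 0.00216 (without M-133- DDC sample 2) to 0.414 (without M-133- untreated sample 2). M-133- DDC sample 2 was at -0.90 while the other M-133- DDC samples were at -8.27, -7.72 and -8.19. In DDC liver the difference was -1.06 (SE 1.34, adjusted p = 0.687). Rspo4 differed by -0.66 and -0.24, neither past the threshold.

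The Frizzled receptors went both ways. Of 10 tested, Fzd3, Fzd6 and Fzd9 were higher and Fzd4 was lower in M+133+ cells of untreated liver, and Fzd3 and Fzd6 were higher and Fzd4 lower in DDC liver.

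Fzd3, a receptor known from axon guidance and planar polarity, had -1.70, -1.91, 0.28 and -5.14 in M+133+ cells of untreated liver and -7.44 and -8.03 in M-133- cells. It was not well above background on any M-133- untreated array, so its signal was at least 13.9-fold higher in M+133+ cells (at least 7.97-fold without M+133+ untreated sample 3 and 27.9-fold without sample 4). The fitted difference was 5.62 (SE 1.23, adjusted p = 0.00961). Fzd3 passed the filter in the M+133+ groups alone, where it is high, so its differences are a description. In DDC liver M+133+ samples had -2.53, -3.52, -2.29 and -4.55 and M-133- samples -8.19, -5.62, -7.62 and -7.41, without overlap. That difference was 3.99 (SE 1.00, adjusted p = 0.0153). All 3 kept probes of Fzd3 pointed the same way in both treatments, with differences from 2.55 to 6.42. With normexp background correction the differences were 1.46 and 1.59 and neither passed (adjusted p 0.297 and 0.153). With quantile normalization the difference in DDC liver was 3.15 and did not pass (adjusted p 0.0577). The untreated call was also lost without M-133- untreated sample 1 (0.0703) or 2 (0.0856).

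Fzd6, a Frizzled receptor known for planar polarity, had -3.07, -1.09, -1.54 and -0.40 in M+133+ cells of DDC liver and -6.78, -5.29, -4.01 and -7.16 in M-133- cells. The groups did not overlap, and the log2 difference was 4.29 (SE 0.81, adjusted p = 0.00232), 19.5-fold. M-133- DDC samples 1 and 4 were not well above background, so that fold is poorly set. In untreated liver M+133+ samples lay between -1.84 and -0.82 and M-133- samples at -5.72 and -4.07, a difference of 3.47 (SE 0.99, adjusted p = 0.0410). Within 1 of the 2 slides that held both sorts the untreated difference was -0.01, and within the other 3.07. The untreated call was lost without any 1 of the 6 untreated samples (adjusted p 0.0682 to 0.374), and without M+133+ DDC sample 2 (0.0507) or 3 (0.0541).

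Fzd9, a Frizzled receptor known from neural and bone-forming cells, had 1.68, -0.36, 2.45 and 0.79 in M+133+ cells of untreated liver and -5.44 and -3.79 in M-133- cells, which put every M+133+ sample above every M-133- sample. M-133- untreated sample 1 was not well above background for Fzd9, which leaves the fold between the sorts poorly set. The log2 difference of 5.75 (SE 1.02, adjusted p = 0.00235) was the largest increase among the members, 53.9-fold. It missed the threshold without M-133- untreated sample 1 (4.92, adjusted p = 0.0589) and was 3.54 and 6.75 within the 2 slides. In DDC liver the M+133+ samples had -1.15, -3.34, -4.37 and -4.07 and the M-133- samples -6.16, -5.48, -4.72 and -5.51. They did not overlap, but the difference of 2.24 did not pass (SE 0.83, adjusted p = 0.0959).

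Fzd4, the receptor for Norrin and several Wnts in vascular endothelium, was the Frizzled with the opposite pattern. It had -0.35, 0.27, 0.33 and -1.05 in M+133+ cells of untreated liver and 2.09 and 2.50 in M-133- cells, a log2 difference of -2.49 (SE 0.67, adjusted p = 0.0310). In DDC liver the values were -1.92, -0.54, -0.77 and -1.94 against 0.80, 1.09, 2.07 and 0.86, a difference of -2.50 (SE 0.55, adjusted p = 0.00661). The sorts did not overlap in either treatment, and the signal was 5.64-fold and 5.65-fold lower. The untreated call was lost without M-133- untreated sample 1 (adjusted p = 0.137) or 2 (0.201) and without M+133+ untreated sample 1 (0.0706) or 4 (0.0757). The 6 other Frizzled receptors differed by -0.77 (Fzd8) to 2.06 (Fzd1) in untreated and by -0.76 (Fzd1) to 1.72 (Fzd5) in DDC liver, and none passed.

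Neither co-receptor passed in either treatment, and by limma 0 of the 2 had an unadjusted p under 0.05. Lrp5 ranged from 2.27 to 3.07 in M+133+ untreated samples, and the 2 M-133- samples were 0.23 and 2.91. The difference was 1.17 (95% confidence interval -0.41 to 2.75) in untreated and 0.28 (-1.01 to 1.58) in DDC liver. Lrp6 was even among M+133+ samples, at 1.20 to 1.88 untreated and 0.56 to 1.19 after DDC, but its M-133- DDC samples were 3.06, 0.02, -2.0 and -5.07. Its differences were -0.15 (-3.24 to 2.94) and 1.97 (-0.56 to 4.49). The untreated interval was wide in both directions, and that in DDC liver reached far above 0. Without M-133- DDC sample 1 the difference in DDC liver was 3.32 with an adjusted p of 0.0295, but the second kept probe of Lrp6 gave -0.25 there (adjusted p 0.914 in the fit over all probes) and -0.31 in untreated liver.

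Lgr4, which binds R-spondins, had 1.18, 0.69, 1.35 and 1.18 in M+133+ untreated cells and -0.14 and -2.17 in M-133- cells. After DDC the values were 3.70, 0.94, 0.35 and 0.45 against 0.98, -1.58, -1.51 and -0.08, which overlapped through M-133- sample 1. The differences of 2.25 and 1.91 did not pass (SE 0.98 and 0.80, adjusted p 0.212 and 0.146). All 4 Lgr4 probes gave higher signal in M+133+ cells in both treatments, by 0.81 to 4.23, and their mean passed in DDC liver with 3.02 (adjusted p = 0.0225).

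Znrf3, one of the 2 ligases that clear Frizzled from the membrane, had -1.75, -2.87, -2.21 and -3.80 in M+133+ cells of untreated liver. The M-133- samples read -6.84 and -8.34 and were not well above background on any array, so the signal was at least 9.52-fold higher in M+133+ cells. The fitted difference was 4.93 (SE 1.15, adjusted p = 0.0142). Znrf3 did not pass the filter in M-133- untreated cells, so this difference is a description. In DDC liver the M+133+ samples had -3.00, -0.96, -1.72 and -0.65 and the M-133- samples -3.80, -5.63, -8.21 and -7.57, without overlap. The difference of 4.72 (SE 0.94, adjusted p = 0.00339) passed under all 26 alternative settings. The untreated call was lost with normexp (1.07, adjusted p = 0.380) and without M-133- untreated sample 1 (0.0586) or 2 (0.153).

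Rnf43, the other ligase, had 1.42, 0.62, 0.79 and -1.05 in M+133+ and -0.56 and -4.79 in M-133- cells of untreated liver. After DDC it had -0.40, 0.87, -4.0 and -0.48 in M+133+ and -5.00, -3.66, -4.84 and -3.77 in M-133- cells, where M+133+ sample 3 lay among the M-133- values. The differences were 3.12 (SE 1.31, adjusted p = 0.188) and 3.31 (SE 1.07, adjusted p = 0.0544). Without M+133+ DDC sample 3 the latter was 4.31 with an adjusted p of 0.00920, and without M-133- untreated sample 1 or 2 its adjusted p was 0.0356 and 0.0349.

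Of 8 secreted inhibitors tested, Sfrp1 and Dkk3 were lower in M+133+ cells in both treatments and no other passed. Sfrp1, which binds Wnt ligands, had -5.97, -7.50, -2.65 and -6.67 in M+133+ cells of untreated liver and 1.79 and 0.98 in M-133- cells. The log2 difference of -7.08 (SE 1.49, adjusted p = 0.00759) was the largest among the members, a 135-fold lower signal. Sfrp1 did not pass the filter in M+133+ untreated cells, so this difference is a description. In DDC liver the values were -6.77, -2.86, -3.43 and -1.86 against -0.48, 3.72, 1.16 and 0.75, a difference of -5.02 (SE 1.22, adjusted p = 0.0123). The sorts did not overlap in either treatment. The untreated call was lost without M-133- untreated sample 1 (adjusted p = 0.0944) and with a block by the number in the sample titles (-5.69, adjusted p = 0.0694). The mean of the Sfrp1 probes gave -3.94 in DDC liver (adjusted p = 0.0658).

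Dkk3, a Dickkopf family protein whose action on Wnt signalling is less settled than that of Dkk1, had -5.74, -3.30, -3.05 and -4.45 in M+133+ cells of DDC liver. The M-133- samples had 2.55, 2.73, 0.99 and 1.68, a log2 difference of -6.12 (SE 0.85) with the lowest adjusted p among the members, 0.000231. In untreated liver the M+133+ samples had -4.30, -1.40, -1.0 and -3.89 and the M-133- samples 0.92 and 0.94, also apart, with a difference of -3.58 (SE 1.04, adjusted p = 0.0451). The call in DDC liver passed under all 26 alternative settings. The untreated call was lost without either M-133- untreated sample (0.224 and 0.199), M+133+ untreated sample 1 (0.115) or 4 (0.107), M+133+ DDC sample 2 (0.0510) or 4 (0.0536), or M-133- DDC sample 1 (0.0518), 2 (0.0525) or 4 (0.0529).

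The 6 other inhibitors differed by -3.42 (Sfrp2) to -0.82 (Dkk4) in untreated liver and by -4.03 (Sfrp4) to 2.83 (Dkk4) in DDC liver. Dkk1 was above background on 14 of 16 arrays. The dimmest were Wif1, above background on 2 arrays, both of M-133- DDC cells, and Dkk4, on 2, both of M+133+ DDC cells. Sfrp4 in M-133- DDC cells ran from -8.37 to 3.31.

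Markers of other cells moved with the members that were lower in M+133+ cells. The mean level of the 20 endothelial markers was 4.41 to 4.62 in M-133- untreated samples and 0.27 to 3.46 in M-133- DDC samples, beside -2.17 to -0.04 and -5.44 to -1.86 in the M+133+ samples. The mean of the 20 stellate and fibroblast markers was 1.1 to 1.20 and 2.76 to 4.01 in M-133- samples, and -2.72 to -1.33 and -2.70 to -0.25 in M+133+ samples. The hepatocyte marker mean was 3.88 to 4.93 and 4.14 to 4.83 in M-133- samples, and -1.76 to -0.69 and -1.99 to 1.85 in M+133+ samples. No endothelial, stellate or hepatocyte marker was at background on all arrays of any group. These lists were thus high in the same samples as Wnt2, Wnt9b, Rspo3, Fzd4, Sfrp1 and Dkk3, and the bile duct marker mean (2.36 to 3.97 in M+133+, -3.89 to -1.60 in M-133- samples) moved with Fzd3, Fzd6 and Znrf3. The part of these cell types in the differences was not tested.

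The other marker lists were shorter, so their counts of calls between the sorts do not compare directly with those above. Over all genes, 3.57% were higher and 5.32% lower in untreated liver, and 6.24% and 6.71% in DDC liver. In untreated and DDC liver, 2 and 3 of 8 mesothelium markers were higher in M+133+ cells, and 3 and 2 of 16 Kupffer cell and macrophage markers lower with 1 and 0 higher. None of 14 lymphocyte markers passed in either (by limma 0 at an unadjusted p under 0.05). Of 9 erythroid and platelet markers 4 and 3 were lower, none of 5 neutrophil markers passed, and 0 and 1 of 15 cell division genes were higher. The erythroid and platelet mean did not overlap between the sorts. It was -1.56 to -0.79 and -2.23 to -0.83 in M-133- samples, and -5.38 to -3.97 and -4.84 to -3.44 in M+133+ samples.

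**Figure D3:**
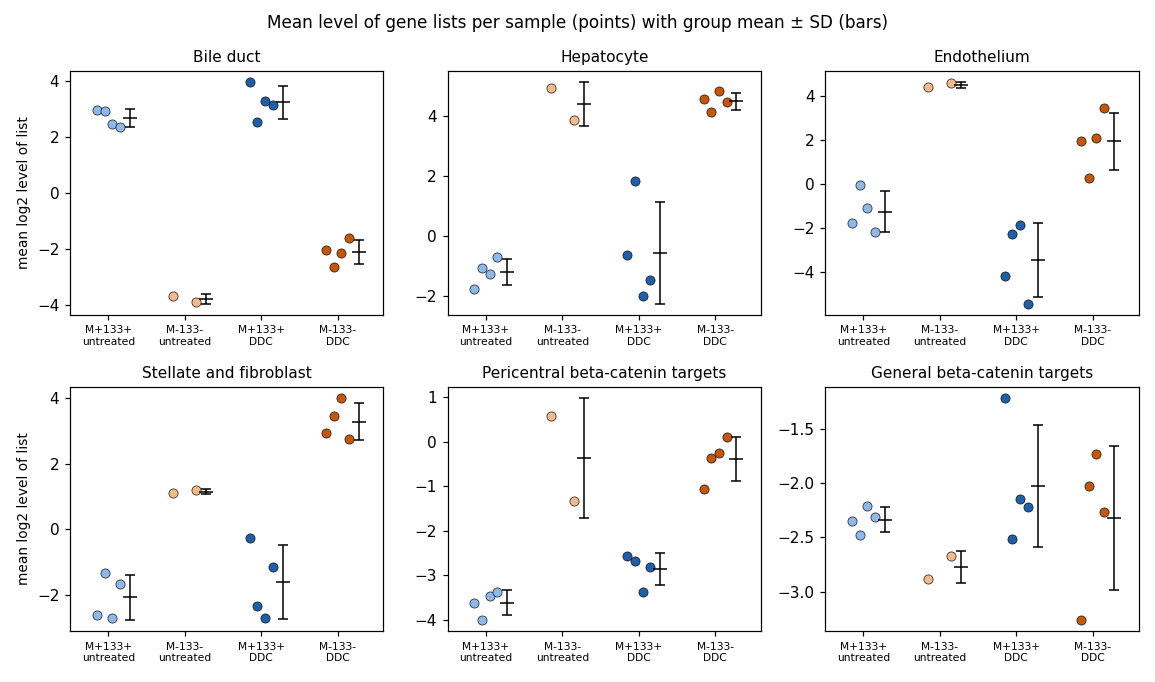
Mean level per sample (points, log2 signal minus the array's 75th percentile) of 4 marker lists and 2 lists of beta-catenin targets, with group mean and SD (bars). Endothelial and stellate markers are highest in M-133- samples (up to 4.62 and 4.01), bile duct markers in M+133+ samples (up to 3.97), while the sorts overlap in the general targets after DDC (M+133+ -2.52 to -1.22, M-133- -3.26 to -1.73).

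The second comparison set DDC against untreated liver within each sort. It shares its samples with the sort comparisons, so each is given by its own values. In M+133+ cells 1 of 43 members passed, Fzd9, which was lower after DDC; over all genes 0.270% passed, 0.172% higher and 0.0987% lower. In M-133- cells none passed (0 of 43), beside 0.978% of all genes (0.622% higher, 0.356% lower); by limma 3 members had an unadjusted p under 0.05. Of 15 cell division genes, 3 passed as higher with DDC in M+133+ and 1 in M-133- cells, while by limma 13 and 9 had an unadjusted p under 0.05. The median difference of that list was 2.33 and 2.74. The median difference of the members was -0.10 in M+133+ and -0.34 in M-133- cells, beside 0.08 and -0.33 over all genes. Groups did not overlap for 2 members in M+133+ cells (8.38% of all genes) and for 7 in M-133- cells (19.6% of all genes).

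Fzd9 went from 1.68, -0.36, 2.45 and 0.79 in untreated to -1.15, -3.34, -4.37 and -4.07 in DDC samples of M+133+ cells, with no overlap. The log2 difference was -4.37 (SE 0.83, adjusted p = 0.0440), a 20.6-fold lower signal. In M-133- cells, where it was low before DDC, it differed by -0.85 (SE 1.02, adjusted p = 0.820). The difference between these responses, -3.51 (SE 1.31), did not pass (adjusted p = 0.392). Within the 2 slides that held both treatments of M+133+ cells, the difference was -3.28 and -5.01. Its adjusted p rose above 0.05 (0.0536 to 0.150) in the fits without M+133+ untreated sample 1, 3 or 4, M+133+ DDC sample 2, 3 or 4, either M-133- untreated sample, or M-133- DDC sample 1, 2 or 4. The authors' deposited table gives Fzd9 a signed fold change of -27.03, lower after DDC, and a false discovery rate of 4.25% in this comparison, the one member below 5% there.

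Other named members gave no call for DDC. Wnt2 in M+133+ cells was lower by a log2 difference of -4.25 that did not pass (SE 1.19, adjusted p = 0.160), and Wnt7a had 2.09 (SE 0.99, adjusted p = 0.402). The endothelial marker mean differed in the same direction as Wnt2, with M+133+ samples at -2.17 to -0.04 before and -5.44 to -1.86 after DDC, with a list median of -2.21. None of its 20 markers passed, while by limma 11 had an unadjusted p under 0.05, and the part of such cells was not tested. Rspo1 in M-133- cells had -3.85 (SE 1.65, adjusted p = 0.333), which became a call without M-133- DDC sample 2. That difference is a description, because Rspo1 passed the filter through M-133- untreated cells alone. Fzd1, a widely expressed Frizzled receptor picked after its values were seen, had the lowest adjusted p in M-133- cells (0.0632). Its untreated samples were -3.23 and -2.71 and its DDC samples 0.74, 0.91, -0.94 and -0.20, all higher, a difference of 3.10 (SE 0.74). It passed without M-133- DDC sample 3, with the slide as a random block and with the first repeat arrays. It also passed where other genes' probes were averaged, although Fzd1 has 1 probe and its own values were then the same.

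**Figure D4:**
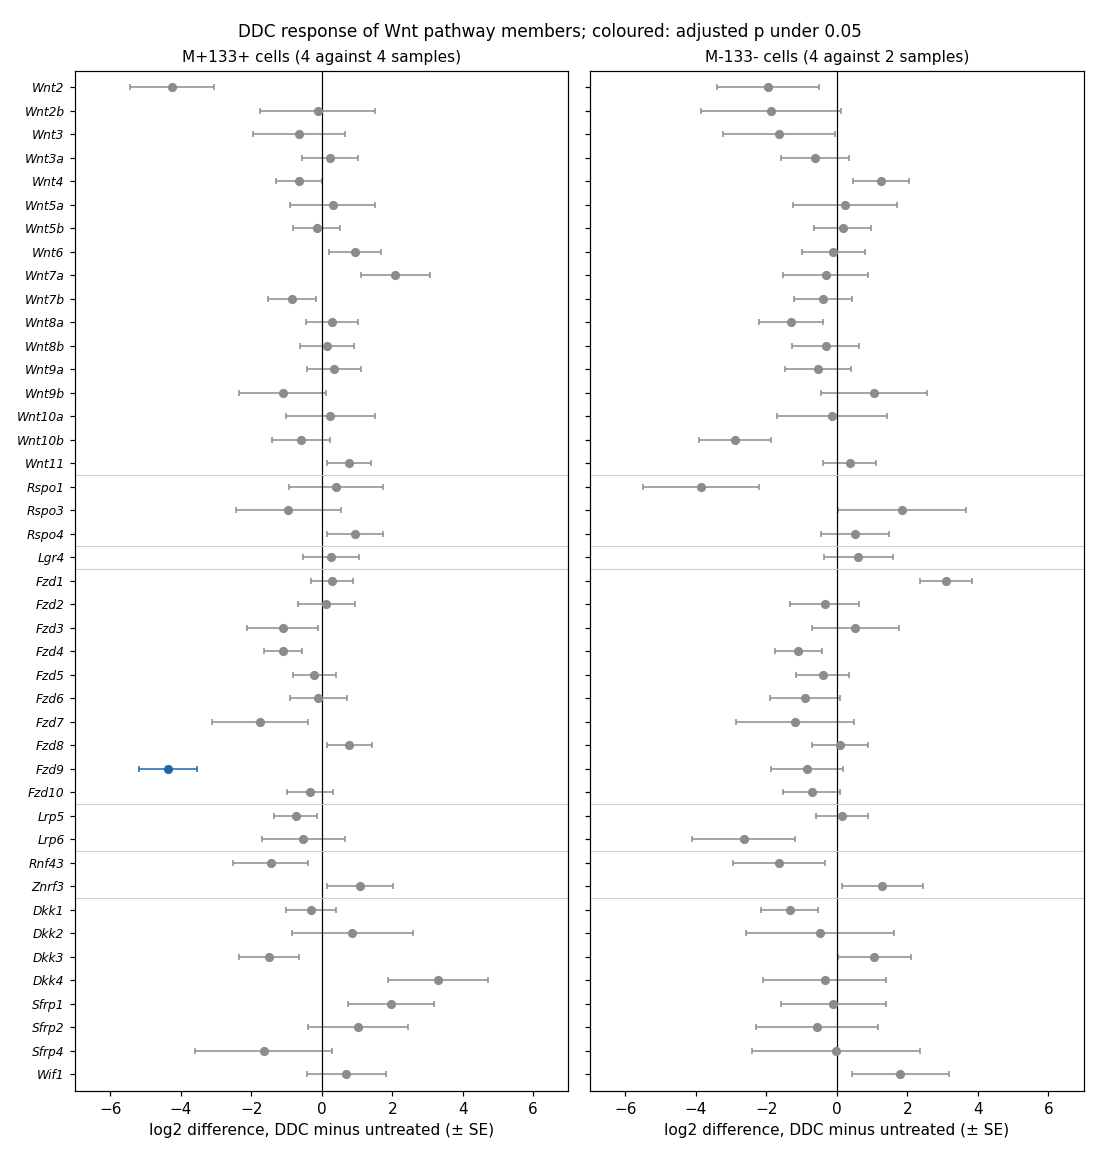
Log2 difference between DDC and untreated liver (x axis, with SE) for the 43 members tested, in M+133+ cells (left) and M-133- cells (right). Fzd9 on the left, at -4.37, is the one coloured member (adjusted p under 0.05), and Fzd1 on the right, at 3.10, has the lowest adjusted p there.

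The interaction, which asks whether DDC acted differently in the 2 sorts, passed for none of the 43 members (0.262% of all genes, 0.0601% higher and 0.202% lower). By limma 2 members, Fzd1 (-2.81) and Fzd9 (-3.51), had an unadjusted p under 0.05, and the lowest adjusted p was 0.333.

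Other genes of the pathway were read from lists beside the members. Over all genes, 3.57% were higher and 5.32% lower in untreated liver, and 6.24% and 6.71% in DDC liver. No test of a list as a set was run. Of 21 further secretion, receptor and extracellular genes, Tnfrsf19 was higher and Adgra2 lower in M+133+ cells of untreated liver, and 5 were lower and none higher in DDC liver. Frzb, a secreted Frizzled-related protein that the naming rule does not take, had the largest of these. It was not well above background on any M+133+ array, and its M-133- samples read -7.77 and -6.19 untreated but 0.96, 0.43, 1.20 and -1.99 after DDC. In DDC liver the signal was at least 93.6-fold lower in M+133+ cells (at least 73.4-fold without M-133- DDC sample 3 and 153-fold without sample 4), with a fitted difference of -8.26 (SE 0.91, adjusted p = 3.19e-05). It was well above background on 1 of 3 M-133- untreated and 4 of 4 M-133- DDC arrays, so it was tested through the group where it is high and its difference is a description. Within M-133- cells it rose with DDC by 7.13 (SE 1.11, adjusted p = 0.00642), which missed the threshold without M-133- untreated sample 1 (0.0945). In the same samples 2 of the 20 stellate and fibroblast markers rose and none fell, and the part of such cells was not tested.

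Adgra2, an adhesion receptor that works with Wnt7a and Wnt7b in vessels, was lower in M+133+ cells by -6.08 (SE 0.81, adjusted p = 0.000314) untreated and -5.75 (SE 0.66, adjusted p = 4.49e-05) after DDC. The other calls in DDC liver were the glypican Gpc3 (-3.71), the secreted Cthrc1 (-2.75) and the Wnt receptor Ryk (-2.61). Cthrc1 passed the filter in M-133- DDC cells alone, where it is higher, so its difference is a description. Cthrc1 was at background in M+133+ DDC cells and its groups overlapped, and its call was lost in 13 of 14 fits that left out 1 sample. Ryk was lost without M-133- DDC sample 1 or 3 or M+133+ DDC sample 1, and Gpc3 without M-133- DDC sample 2. Wls and Porcn, which every Wnt ligand needs for secretion, differed by 1.17 and -0.05 in untreated liver and by 1.06 and -0.25 in DDC liver and did not pass.

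Of 26 cytoplasmic and nuclear genes of the beta-catenin branch, none passed in untreated liver, where by limma 2 had an unadjusted p under 0.05 and the lowest adjusted p was 0.128 (Gsk3a, another kinase of that step). In DDC liver Tcf7l2, a nuclear partner of beta-catenin, was higher in M+133+ cells by 2.77 (SE 0.69, adjusted p = 0.0138) and Gsk3b, a kinase that marks beta-catenin for destruction, by 2.21 (SE 0.61, adjusted p = 0.0260). These were 2 of 26 genes, beside 6.24% of all genes higher in DDC liver. The Gsk3b call was lost without M+133+ DDC sample 1 or 4 or M-133- DDC sample 1 or 3. Of 12 planar polarity genes, Celsr2, an atypical cadherin, was higher in both treatments, by 7.16 (SE 1.27) and 5.71 (SE 1.04), and Prickle1 lower in both, by -4.19 (SE 0.80) and -2.90 (SE 0.65). Celsr1 (6.31, SE 0.92) and Vangl1 (3.31, SE 1.00) were higher in DDC liver, where Vangl1 overlapped between the sorts and was lost in 10 of 14 fits that left out 1 sample.

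Target genes did not move as 1 block. Of 17 general beta-catenin targets, Tnfrsf19, Sox9 and Cd44 were higher and Nkd1 lower in M+133+ cells of untreated liver, and Sox9 and Cd44 higher and Nkd1 lower in DDC liver. Axin2, a feedback inhibitor often used as the readout of the branch, differed by -1.26 and -1.29 and did not pass (SE 1.45 and 1.18, adjusted p 0.748 and 0.55). Its M-133- DDC samples were -8.26, -2.21, -1.63 and -1.99, so 1 of 4 stood apart. Lgr5 differed by -0.54 and 0.20 and was above background on 2 or 3 arrays of each group. Nkd1, a target that also binds Dishevelled, had 0.17 and 0.58 in M-133- untreated and -8.14, -2.51, -4.44 and -8.93 in M+133+ untreated cells. Its differences were -6.38 (SE 1.54, adjusted p = 0.0173) and -6.96 (SE 1.26, adjusted p = 0.00171), and the former was lost without either M-133- untreated sample. Sox9, a transcription factor of biliary cells that is also among the bile duct markers, differed by 5.15 (SE 0.64) and 1.94 (SE 0.52). The latter was lost without M-133- DDC sample 1 or M+133+ DDC sample 1 or 4, and its groups overlapped. Cd44, a hyaluronan receptor, differed by 4.18 and 3.93, the former lost without M-133- untreated sample 2. Tnfrsf19, a membrane receptor known as a target and partner of Lgr5, differed by 5.50 (SE 0.96, adjusted p = 0.00223) in untreated liver.

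The 14 pericentral targets of the liver tested had a median difference of -2.91 in untreated and -1.93 in DDC liver. Over all genes the median was -0.1 and 0.27. Of the 14, Cyp2e1, Cyp1a2, Rgn, Aldh1a7 and Nkd1 were lower in M+133+ cells in both treatments and Lect2 in DDC liver. The glutamate transporter Slc1a2 was higher in DDC liver. Cyp2e1, a drug-metabolising enzyme, differed by -6.67 (SE 1.46, adjusted p = 0.00954) and -6.01 (SE 1.19, adjusted p = 0.00323). In untreated liver Cyp2e1 and Cyp1a2 were lost without M-133- untreated sample 1, and Slc1a2 in DDC liver without M-133- DDC sample 3. Glul, glutamine synthetase of pericentral hepatocytes, differed by -1.50 and -1.25 and did not pass. Hepatocyte markers moved the same way (14 of 17 lower in both treatments), and their part was not tested. DDC gave no call among the pericentral targets in either sort (by limma 1 in each at an unadjusted p under 0.05). Among the general targets Sox9 rose in M-133- cells by 3.36 (SE 0.64, adjusted p = 0.0210), which was lost without M-133- untreated sample 1.

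Promoter windows of 250 bases before to 50 after the start, from RefSeq on GRCm38.p6, were matched by symbol for 30 of the 47 members, which gave 34 windows. The core letters CTTTGAT, which Tcf and Lef factors are known to bind, occurred on either strand in 2 windows (5.88%), those of Wnt11 and Wnt5b, and in 3.73% of all 32851 windows. Neither gene passed in any comparison.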

How the data were processed

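Cy3-labelled cDNA amplified from each sorted population was hybridised to Agilent mouse arrays of 60-base probes. Per the file headers, the deposited intensity values (processed signals) and the well-above-background calls come from Feature Extraction 10.5.1.1. The submitters' processing notes name limma; its version is not given in the sources used here. The authors' deposited table gives a signed fold change of group means, handled here as a score because it is negative for decreases, and a false discovery rate in percent. How the authors normalised or tested it is not given in the sources used here. Its sort folds are M-133- over M+133+, the reverse of the direction used here. In the authors' deposited table, 10 of 43 members were below 5% in the untreated sort (15.6% of its 38565 probes), 8 in the DDC sort (7.93%), 1 for DDC in M+133+ (0.394%) and 0 in M-133- cells (0.176%). These were not all the members that passed here. In the untreated sort it gives Wnt2 1.75%, Wnt9b 0.65%, Rspo1 0.31% and Lgr4 1.1%, which did not pass here. Members that passed here but were not below 5% there were Fzd6 in the untreated sort (5%) and Wnt7a (16.63%) and Znrf3 (5.17%) in the DDC sort. Dkk1, Dkk2, Fzd1, Rnf43, Rspo3 and Wnt11 also stood at 5% in the untreated sort, so they were not counted as below it.

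From these intensities, control and outlier spots were left out, log2 signals were set relative to the 75th percentile of each array, repeat spots and then repeat arrays of a sample were averaged, and a probe was kept where at least 0.5 of a group's samples were well above background. The brightest kept probe stood for a gene (23309 genes). Of 41174 probes, 32831 had a current name through RefSeq and 8343 kept the file's name. All 14 samples entered 1 limma fit (R 4.3.3, limma 3.58.1, eBayes with an intensity trend, two-sided), with Benjamini-Hochberg adjustment over all genes. The p-values measure the spread between these samples. Where a group was not well above background on any array, a difference is also given as "at least" a fold: the brighter group's mean against the mean over the dim group's arrays of the higher of the probe's own signal and the lowest signal of any probe well above background.

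The name rule itself uses no measured value, but the gene family and the lists were chosen with earlier results of these data known. Per-sample values are given for members that passed in any comparison and for Wnt2, Wnt9b, Rspo1, Rspo3, Lgr4, Lrp5, Lrp6, Rnf43 and Znrf3; of the other lists, up to 4 called genes per comparison and direction are named. Outside that rule, Fzd1, Wnt11, Wnt9a, Dkk1, Dkk4, Wif1, Sfrp4, Ryk, Aldh1a7, Gsk3a, Axin2, Lgr5, Glul, Wls and Porcn were named after their values were seen. On simulated data with 23309 genes, 100 genes were changed 16-fold and 100 were changed 4-fold for each comparison. The 16-fold changes were recovered for 30% of changed genes in the untreated sort and 46% in the DDC sort, 53% for the diet in M+133+ and 34% in M-133- cells, and 8% in the interaction. For 4-fold changes this was 3%, 8%, 15%, 3% and 1%. The Benjamini-Hochberg threshold depends on how many genes change, and 2073 and 3019 genes passed in the untreated and DDC sorts. The simulated recovery thus does not carry over to the sort comparisons. Alternatives were the background correction, normalization, filter, probe rule, trend, slide as a block, replicate number as a block, choice of repeat array and each sample left out. Fits per probe, differences within a slide and the fits of other pathway genes with 1 sample left out were chosen after seeing the data, as were the "at least" folds with 1 sample left out.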

Additional observations from a re-analysis of the deposited data

Results flagged for a closer look

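Samples of 17 members and 3 other pathway genes were looked at in 60 groups of 4 for a value far from the other 3, which chance gives in about 1 of 20 groups. There were 5 such values. Rspo1 was at -0.90 in M-133- DDC sample 2, while the other samples of that group were at -8.27 to -7.72. Wnt2 was at -2.58 in the same sample, below the others at 1.43 to 1.71. Wnt2 was also low, at -5.17, in M+133+ untreated sample 1, where the others were at -1.35 to -0.74. Among the other pathway genes, Axin2 was at -8.26 in M-133- DDC sample 1 (others -2.21 to -1.63), and Frzb was at -5.87 in M+133+ DDC sample 1 (others -8.95 to -8.75), where no array was well above background.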

How the results depend on the processing

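The number of members that passed in untreated liver (7) was 4 with normexp background correction, 4 with the slide as a fixed block, and 3 with a replicate block by the number in the sample titles. It ranged from 0 to 8 when 1 sample was left out. In DDC liver (10) it was 5 with the slide as a fixed block and 8 to 10 with 1 sample left out. The single call for DDC in M+133+ cells went to 0 with no filter on dim probes, no intensity trend, the slide as a fixed block, second repeat arrays, or the replicate block, and ranged from 0 to 1 with 1 sample left out. In M-133- cells (0) it was 1 with probes averaged per gene, the slide as a random block, or first repeat arrays, and 0 to 1 with 1 sample left out; the interaction stayed at 0 to 0.

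Signs turned for some members whose difference had not passed. Not all of these were near 0, as for Lrp5 in untreated liver (1.17) and Rspo1 in DDC liver (-1.06). Lrp6 in untreated liver (-0.15) became 0.22 (quantile), 0.72 (fixed slide), 0.52 (first repeat arrays), 0.59 (replicate block) and lay between -0.99 and 0.69 with 1 sample left out (0.69 without M-133- untreated sample 2). With 1 sample left out, Lrp5 lay between -0.17 (without M-133- untreated sample 1) and 2.51 in untreated liver, and between -0.06 (without M-133- DDC sample 1) and 0.71 in DDC liver. Wnt7a became -0.01 in untreated liver (fixed slide), and Rspo1 in DDC liver lay between -1.72 and 0.73 with 1 sample left out (0.73 without M-133- DDC sample 2). The causes were not tested.

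Same-numbered samples did not deviate together (correlations -0.15 to 0.08 by replicate number, -0.01 to 0.11 by title number). The main fit took no numbers as pairs, but groups this small cannot exclude pairing. Each of 6 title numbers joined 1 M+133+ and 1 M-133- sample of the same treatment, and the labels do not say what that number means. With the replicate block the untreated Dkk3 and Fzd6 differences (adjusted p 0.0693 and 0.0960) and Wnt7a in DDC liver (0.0729) no longer passed, while Wnt2 in untreated liver passed (0.0314). With the block by title number the untreated Sfrp1 (0.0694), Dkk3 (0.136), Fzd4 (0.252) and Fzd6 (0.272) differences no longer passed. Normexp moved the median of all genes by -0.44 in the untreated and -0.06 in the DDC sort, -0.40 for DDC in M-133- cells and 0.37 in the interaction; quantile normalization moved them by 0.09, -0.32, 0.40 and -0.40. Dim members, at or near background in a group, have a poorly set fold.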
